A study of Rattus norvegicus with 8 samples.

Results

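The nitric oxide, natriuretic peptide and cGMP pathway was examined in rat lung through 8 genes: Nos3, the soluble guanylyl cyclase subunit genes Gucy1a1 and Gucy1b1 (earlier symbols Gucy1a3 and Gucy1b3), Prkg1, Pde5a, and the natriuretic peptide receptor genes Npr1, Npr2 and Npr3. Members were taken by gene symbol, and 7 of the 8 matched a row among 32623 genes. Prkg1, the cGMP-dependent kinase, was not analysed here. RNA sequencing of oligo(dT)-selected total RNA gave 4 lung libraries of rats given monocrotaline (MCT) and 4 control lung libraries. Monocrotaline is a plant alkaloid used to bring on pulmonary hypertension in rats. The labels give no strain, sex, age, dose, time after treatment or control vehicle, and do not say whether each library came from its own animal, so the spread behind each p-value may be technical.

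In this pathway, endothelial nitric oxide synthase (Nos3) makes nitric oxide, which crosses to neighbouring smooth muscle and activates soluble guanylyl cyclase, a heterodimer of an alpha and a beta subunit. The natriuretic peptides raise cGMP by a second route, through the membrane guanylyl cyclases Npr1 and Npr2, while Npr3 has no cyclase domain and clears the peptides from the circulation. cGMP relaxes vascular smooth muscle mainly through cGMP-dependent kinase and is broken down by phosphodiesterases, of which Pde5a is the target of sildenafil in pulmonary hypertension.

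The libraries held about 10.8 to 14.7 M read pairs in control and 11.3 to 18.1 M in MCT. Each member was covered by 136 (Npr3) to 3599 (Npr1) read pairs per library. Levels are given in FPKM, read pairs scaled to transcript length and library depth, which can be compared between genes. Sftpc, the surfactant gene that marks alveolar type 2 cells, stood at 21540 ± 3575 FPKM (SD, n = 4) in control and 15160 ± 1421 in MCT. Control 1 and MCT 1 had the highest summed ciliated cell markers (769 and 728 FPKM, the others 352 to 677), and MCT 1 had the highest cardiac markers (195 against 42.1 to 85.4). Calls are therefore also given without these libraries.

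MCT lungs held less mRNA of Npr3, Npr1 and, less firmly, Gucy1a1, while Nos3, Gucy1b1, Pde5a and Npr2 did not pass the test. For Pde5a the log2 fold change was -0.69 (adjusted p 0.0887 by edgeR). Of the 7 members, 3 were lower and none higher by edgeR's quasi-likelihood test at a Benjamini-Hochberg adjusted p under 0.05. Over all 16715 genes tested, 20.5% were called, of which the lower ones made up 9.45% of the tested genes and the higher ones 11.0%. At an unadjusted p under 0.05 by edgeR, 4 members were lower and none higher. Over all 16715 genes tested, 5513 to 5725 passed that p in either direction. DESeq2 also called 4 members lower and none higher. The median log2 fold change was -0.50 over the members and 0.03 over all genes tested. The control and MCT ranges did not overlap for 3 members, against 25.0% of all genes tested. Without control 1 and MCT 1, 2 members were lower. The all-gene shares of that fit and of DESeq2 are not given here. Their counts, here and for the pathway lists, are therefore a description only.

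**Figure D1:**
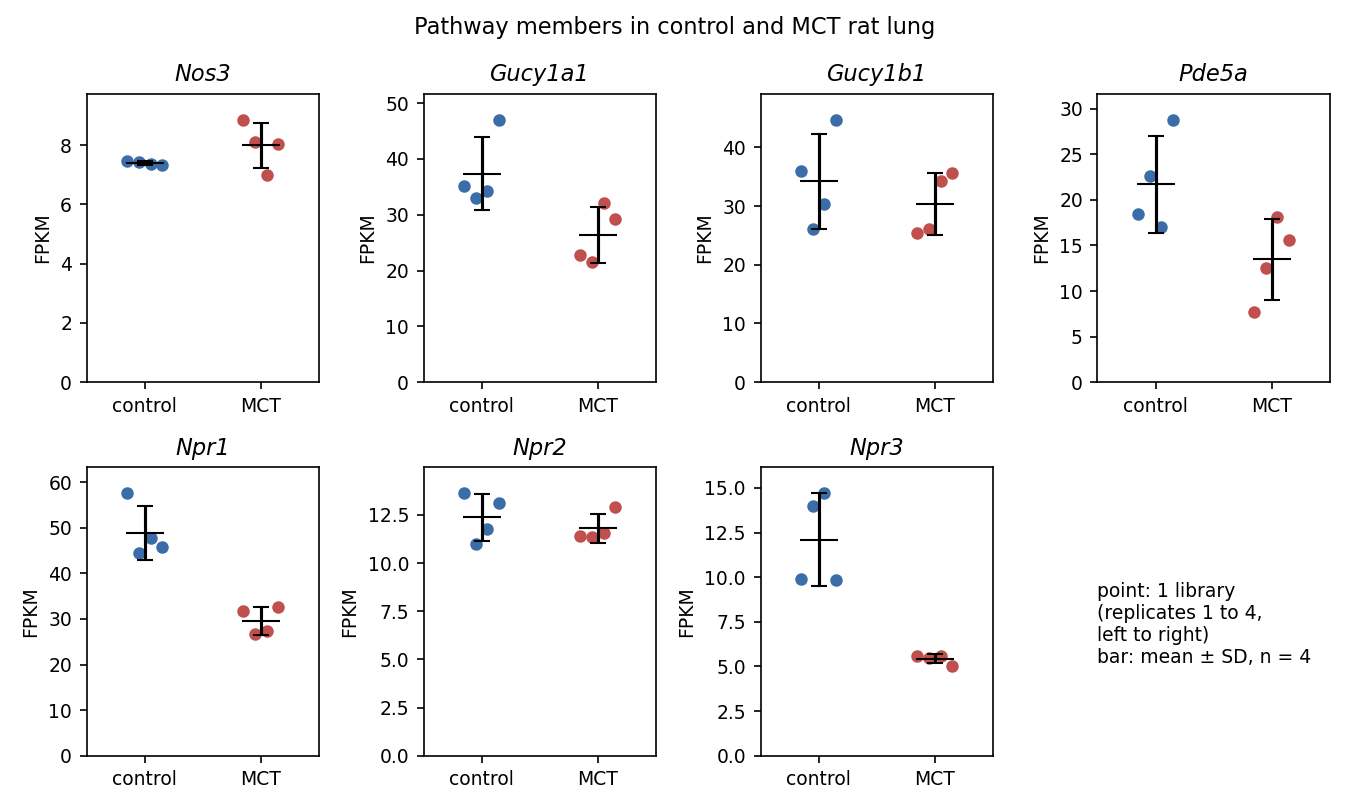
FPKM of each member in the 4 control and 4 MCT libraries (points, replicates 1 to 4 from left to right), with mean ± SD. The control and MCT points do not overlap for Gucy1a1, Npr1 and Npr3, and the 4 control points of Nos3 lie between 7.32 and 7.48.

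Nos3, the enzyme that starts the nitric oxide branch, lies on chromosome 4 from 7320668 to 7342410 on the minus strand (ENSRNOG00000009348). All positions of genes here are those of the deposited table, on Rnor_6.0. Its level was 7.48, 7.42, 7.37 and 7.32 FPKM in control 1 to 4, a coefficient of variation of 0.926%, the smallest of the members. In MCT 1 to 4 it was 8.86, 8.10, 7.0 and 8.05 FPKM. MCT 3 lay below every control library and the other 3 MCT libraries above them, so the groups overlapped. The log2 fold change was 0.11 (SE 0.09, adjusted p 0.433 by edgeR), and it stayed between 0.05 and 0.18 in 18 alternative fits, none of which passed the threshold. The 3′ end of Nos3 overlaps Atg9b on the other strand, whose mean was 0.0475 FPKM.

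The genes of the soluble guanylyl cyclase subunits are neighbours on chromosome 2, both on the minus strand. Gucy1b1 (ENSRNOG00000012060, 180976939 to 181026024) and Gucy1a1 (ENSRNOG00000012302, 181045703 to 181102918) are 19.7 kb apart, with 1 small nuclear RNA gene listed at 0 between them. Gucy1a1, the alpha subunit, was at 35.1, 33.0, 34.3 and 47.0 FPKM in control 1 to 4. In MCT 1 to 4 it was at 22.8, 21.6, 32.1 and 29.2 FPKM. All MCT libraries lay below all control libraries, although MCT 3 came within 1 FPKM of control 2. The log2 fold change was -0.50 (SE 0.15, adjusted p 0.0412 by edgeR). This call is close to the threshold: limma on log2(FPKM + 0.5) gave an adjusted p of 0.0528. Leaving out MCT 3 kept the call (0.0339), while leaving out any other single library gave adjusted p of 0.0553 to 0.105, and leaving out both control 1 and MCT 1 gave 0.0968.

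Gucy1b1, the beta subunit that carries the heme to which nitric oxide binds, was at 35.9, 26.1, 30.3 and 44.7 FPKM in control 1 to 4 and at 25.5, 26.1, 34.2 and 35.6 FPKM in MCT 1 to 4. The groups overlapped over most of their range. Its log2 fold change was -0.17 (SE 0.17, adjusted p 0.518 by edgeR), and it ran from -0.28 without control 2 to -0.03 without control 4. The ratio of alpha to beta subunit was compared within each library as a difference of log2(FPKM + 0.5). It averaged 0.14 ± 0.16 (SD, n = 4) in control and -0.20 ± 0.09 in MCT, and every MCT library (-0.28 to -0.09) lay below every control library (-0.03 to 0.33). The difference of -0.34 had p = 0.0286 in an exact two-sided permutation test, the smallest p that 70 splits of 4 and 4 allow, and an adjusted p of 0.1 over the 7 ratios tested. With that floor, no ratio can pass after adjustment unless most of the 7 reach it. The adjusted test therefore cannot decide whether the subunits changed unequally.

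Pde5a, which breaks down cGMP in vascular smooth muscle, lies on chromosome 2 from 226900619 to 227041576 on the plus strand (ENSRNOG00000014443). It was at 18.4, 22.6, 17.0 and 28.8 FPKM in control 1 to 4. In MCT 1 to 4 it was at 7.74, 12.5, 18.1 and 15.6 FPKM. MCT 3 reached into the control range, and the other 3 MCT libraries lay below it. Its log2 fold change of -0.69 had the largest standard error of the members (0.25) and did not pass (adjusted p 0.0887 by edgeR). DESeq2 gave -0.70 with an adjusted p of 0.025, and the adjusted p over the 18 alternatives ran from 0.025 to 0.206. MCT 1 and control 4 were the extreme libraries: without MCT 1 the log2 fold change was -0.51, and without control 4 it was -0.54.

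Npr1, the cyclase receptor for the atrial and B-type peptides, was the most abundant member in control. It lies on chromosome 2 from 189840403 to 189856090 on the minus strand (ENSRNOG00000014684). Its levels were 57.6, 44.5, 47.8 and 45.9 FPKM in control 1 to 4 and 31.7, 26.6, 27.4 and 32.6 FPKM in MCT 1 to 4. The highest MCT library lay well below the lowest control library. This was a log2 fold change of -0.73 (SE 0.11, adjusted p 0.0024 by edgeR), or 0.604 times the control level. All 18 alternatives kept the call, with log2 fold changes of -0.78 to -0.64, and without control 1 and MCT 1 it was -0.69.

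Npr3, the clearance receptor, showed the largest fold change of the members. It lies on chromosome 2 from 61888950 to 61949926 on the minus strand (ENSRNOG00000019184). In control 1 to 4 it was at 9.88, 14.0, 14.7 and 9.85 FPKM, which form a lower and a higher pair. In MCT 1 to 4 it was at 5.61, 5.48, 5.59 and 5.05 FPKM, all within a narrow band below the controls. This gave a log2 fold change of -1.16 (SE 0.17, adjusted p 0.00197 by edgeR), or 0.447 times the control level. It ran from -1.28 to -1.01 over the 18 alternatives, and all of them kept the call.

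Npr2, the cyclase receptor for the C-type peptide, lies on chromosome 5 from 59128315 to 59147255 on the plus strand (ENSRNOG00000015991). It was at 13.6, 11.0, 11.8 and 13.1 FPKM in control 1 to 4 and at 11.4, 11.4, 11.5 and 12.9 FPKM in MCT 1 to 4. Every MCT value fell inside the control range. The log2 fold change was -0.07 (SE 0.08, adjusted p 0.626 by edgeR), and it ran from -0.12 to -0.02 over the 18 alternatives.

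As a description, the summed FPKM of the 3 natriuretic peptide receptors was 68.9 to 81.1 in control and 43.5 to 50.6 in MCT. Npr2 made up 15.8% to 19.1% of that sum in control and 23.4% to 26.2% in MCT. Npr3 made up 12.2% to 20.1% in control and 9.99% to 12.6% in MCT, and Npr1 64.0% to 71.0% and 61.2% to 65.0%. The ratio of clearance receptor to cyclase receptor, Npr3 to Npr1, averaged -1.99 ± 0.41 (SD, n = 4) on the log2 scale in control and -2.34 ± 0.19 in MCT. That difference of -0.35 did not pass (p = 0.2 in the exact permutation test, adjusted p 0.28), and the groups overlapped.

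**Figure D2:**
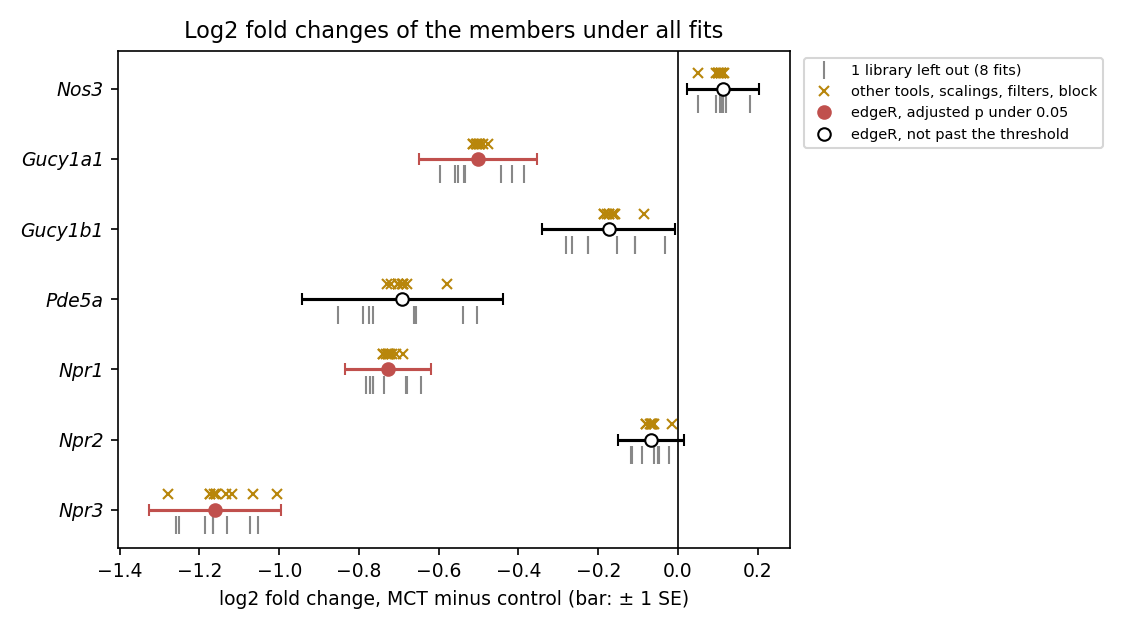
Log2 fold change of each member, MCT minus control, by edgeR (circles, bar ± 1 SE, filled where the adjusted p is under 0.05), with the fits that leave out 1 library (vertical ticks) and the other alternatives (crosses). Npr1 and Npr3 lie away from 0 in every fit, Nos3 and Npr2 lie near 0, and Pde5a has the widest bar.

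Promoter sequences from RefSeq (build GRCr8, matched for 6 of the 7 members) are shown for the 3 genes that were lower and for Nos3, which was not. Each is the 250 bases before the annotated start, 5′ to 3′ on the gene's strand, with capitals marking GGGCGG or its reverse complement CCGCCC, the GC box bound by Sp1-family factors.
Npr3, chr2:62658766-62659015, minus strand: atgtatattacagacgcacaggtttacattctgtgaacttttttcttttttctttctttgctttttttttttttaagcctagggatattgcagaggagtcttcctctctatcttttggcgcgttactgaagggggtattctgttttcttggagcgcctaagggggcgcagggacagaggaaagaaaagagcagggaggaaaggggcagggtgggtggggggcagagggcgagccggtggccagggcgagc
Npr1, chr2:178247089-178247338, minus strand: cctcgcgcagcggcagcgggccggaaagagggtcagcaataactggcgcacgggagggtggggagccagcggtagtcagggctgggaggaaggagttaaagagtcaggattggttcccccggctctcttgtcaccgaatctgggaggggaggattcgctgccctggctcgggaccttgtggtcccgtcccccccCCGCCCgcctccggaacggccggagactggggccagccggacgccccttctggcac
Gucy1a1, chr2:169779624-169779873, minus strand: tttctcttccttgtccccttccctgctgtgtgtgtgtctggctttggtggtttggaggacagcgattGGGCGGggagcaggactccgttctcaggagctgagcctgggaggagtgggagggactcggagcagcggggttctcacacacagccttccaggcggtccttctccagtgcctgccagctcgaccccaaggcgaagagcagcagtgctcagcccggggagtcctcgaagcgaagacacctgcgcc
Nos3, chr4:11706582-11706831, minus strand: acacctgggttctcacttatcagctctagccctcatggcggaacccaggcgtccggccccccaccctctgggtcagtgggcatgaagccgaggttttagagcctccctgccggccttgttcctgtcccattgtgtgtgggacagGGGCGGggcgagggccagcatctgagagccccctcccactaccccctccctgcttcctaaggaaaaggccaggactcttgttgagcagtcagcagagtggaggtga
A GC box stood in 5 of the 6 promoters, all but that of Npr3, and in 30.5% of 33469 rat promoters of the same length. Npr3 also had the lowest GC content of the 6, 49.6%, against 62.4% for Nos3, 63.2% for Gucy1a1 and 68.8% for Npr1, with a median of 51.2% over all promoters. CACCC, searched on both strands as all motifs were, stood in 4 of 6 (Nos3, Pde5a, Npr1 and Npr3) and in 49.2% of all, and CCAAT in 3 of 6 (Gucy1a1, Gucy1b1 and Npr1) and 34.0%. TGATAA stood only in that of Nos3 among the 6, and in 7.97% of all. CACGTG (5.59% of all), TATAAA (12.9%), CCGGAAG (7.27%), TGACTCA (4.05%) and TGACG (18.2%) stood in none of the 6. These matches describe letters in these windows and are no evidence of binding.

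The order of the members by mean FPKM differed between the groups. In control it ran Npr1 (48.9), Gucy1a1 (37.4), Gucy1b1 (34.2), Pde5a (21.7), Npr2 (12.4), Npr3 (12.1) and Nos3 (7.40). The ranges of neighbours overlapped except between Pde5a and Npr2 and between Npr3 and Nos3. In MCT the order ran Gucy1b1 (30.3), Npr1 (29.6), Gucy1a1 (26.4), Pde5a (13.5), Npr2 (11.8), Nos3 (8.0) and Npr3 (5.43). Npr3 took the last place there, below Nos3 in every MCT library, while it was above Nos3 in every control library.

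The members also differed in how they varied from library to library within a group. After the group mean was taken off each log2(FPKM + 0.5) value, Gucy1a1 and Gucy1b1 had a Pearson r of 0.90 over the 8 libraries, and Gucy1a1 and Pde5a one of 0.78. Npr1 and Npr3, which both fell, had an r of -0.45, and Npr2 and Npr3 one of -0.87. Control 4 was the highest control library for Gucy1a1, Gucy1b1 and Pde5a and the lowest for Npr3 and Nos3. These coefficients describe 8 libraries that share their depth and scaling between genes.

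Bulk lung RNA cannot tell fewer cells of a type from less RNA per cell, so the markers of the cells that carry these genes are given beside them. Of 19 pan-endothelial markers tested, 9 were lower and 1 higher, with a median log2 fold change of -0.52. For this and every later marker list, the share over all genes tested was 9.45% lower and 11.0% higher. The summed level of the pan-endothelial markers was 1627 to 1789 FPKM in control and 1110 to 1391 in MCT. Eng, a co-receptor of the TGF-beta family and the most abundant of them, went from 317 ± 33.6 to 199 ± 30.0 FPKM (SD, n = 4). Of 12 capillary markers, 7 were lower and 3 higher, with sums of 1543 to 2075 and 759 to 1156 FPKM. Plvap, the fenestral diaphragm protein, went from 952 ± 161 to 316 ± 76.6 FPKM. No endothelial or capillary marker was at 0 in all libraries, but Cldn5 was listed at 0 in MCT 2 (21.6 to 42.3 FPKM in the other MCT libraries) and Robo4 at 0 in MCT 4 (2.64 to 3.54). Pecam1 was not analysed here. The part of endothelial content in the fall of Npr1 and Npr3 was not tested.

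Nos3, Npr1 and Npr3, which endothelium expresses, were also set against the endothelial markers within each library. The log2 fold changes of the 19 markers ran from -2.61 (Tek) to 1.15 (Emcn), 16 negative and 3 positive. The measure is log2(FPKM + 0.5) minus the mean of the same over these 19 markers, which is no change that they share. For Nos3 it was -3.01 to -2.92 in control and -2.46 to -1.78 in MCT, with no overlap. The difference of 0.82 had an exact permutation p of 0.0286, the smallest possible, and an adjusted p of 0.1. For Npr1 the measure was -0.33 ± 0.18 (SD, n = 4) in control and -0.33 ± 0.18 in MCT (exact permutation p = 1). For Npr3 the difference was -0.35, with overlap (exact permutation p = 0.143, adjusted p 0.25). Against the logarithm of the summed marker FPKM, in which abundant markers weigh more, the differences were 0.61 for Nos3, -0.205 for Npr1 and -0.55 for Npr3. Their exact permutation tests, adjusted over the marker ratios alone, gave adjusted p of 0.0714, 0.143 and 0.0714. The zeros of Cldn5 and Robo4 lower the marker mean in MCT 2 and MCT 4. Over the 17 markers above 0 in every library, Nos3 differed by 0.76, again with no overlap (exact permutation p = 0.0286, adjusted p 0.1), Npr1 by -0.06 and Npr3 by -0.41 (exact permutation p = 0.571 and 0.143).

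Of 15 smooth muscle markers tested, 2 were higher and 2 lower, the median log2 fold change was 0.12, and the sums were 931 to 1297 FPKM in control and 980 to 1483 in MCT. Tagln, an actin-binding protein of smooth muscle and the most abundant of them, was at 384 ± 60.5 and 458 ± 75.5 FPKM (SD, n = 4). Relative to the mean of the 14 smooth muscle markers with a mean of at least 1 FPKM, Gucy1b1 differed by -0.21 (exact permutation p = 0.429) and Pde5a by -0.75 (p = 0.143, adjusted p 0.25), both with overlap. The Gucy1b1 value was -0.06 without control 4, -0.08 without MCT 2, -0.14 without MCT 1 and -0.36 without MCT 4. Pericytes also express the cyclase subunits. Of 12 pericyte markers 2 were lower, Notch3 and Rgs5, and 1 higher, Postn, which fibroblasts express too (144 ± 20.0 to 221 ± 57.8 FPKM). The sums of the pericyte markers overlapped, at 307 to 404 FPKM in control and 281 to 463 in MCT, but Postn, the most abundant, weighed most in them. Of the 12, 10 had negative and 2 positive log2 fold changes, with a median of -0.131.

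**Figure D3:**
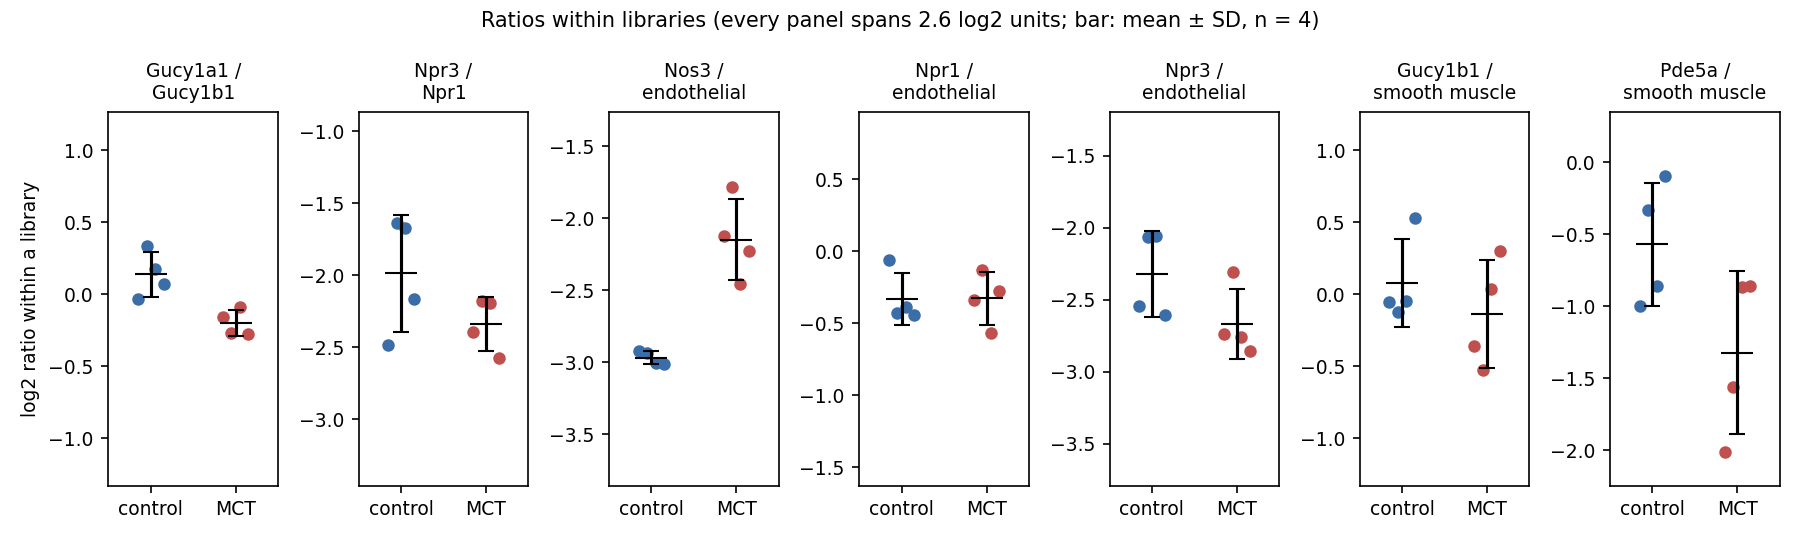
Log2 ratio within each library for the 7 ratios tested (points, replicates 1 to 4 from left to right, with mean ± SD), where endothelial and smooth muscle stand for the mean log2 level of the marker lists. Control and MCT points do not overlap for Gucy1a1 to Gucy1b1 and for Nos3 to the endothelial markers. None of the 7 passed after adjustment, which needs most of them to reach the smallest possible p.

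Markers of several other cell types differed between the groups as well. Platelets carry soluble guanylyl cyclase and Pde5a. Of 8 platelet markers tested 1 was higher, Pf4 (23.6 ± 9.48 to 55.6 ± 4.72 FPKM), which macrophages can express, and the defining Gp9 was under 0.5 FPKM on average in both groups. Of 11 fibroblast markers 4 were higher and none lower, with sums of 790 to 1040 and 1288 to 2007 FPKM (Col3a1, 302 ± 54.4 to 809 ± 203). Mast cell markers were 9 higher and 2 lower of 11, with sums of 154 to 174 and 316 to 1334 FPKM (Cpa3, 3.67 ± 1.23 to 212 ± 107). The 2 lower were Kit (mean 52.2 to 26.9 FPKM), also on the capillary list, and Gata2 (89.0 to 36.2). These 2 made up most of the control sum. Macrophage markers were 7 higher and none lower of 11, with a median log2 fold change of 1.085, and 10 of them had positive values. Their sums overlapped, but were led by Lyz2 (14610 ± 1896 and 13620 ± 4072), the 1 marker with a negative value (-0.1). Alveolar epithelial markers were 6 lower and 1 higher of 14, with sums of 31690 to 40200 and 23400 to 29160 FPKM. None of 10 cardiac and none of 11 ciliated markers was called by edgeR, with Actc1 at 25.2 ± 9.29 and 33.7 ± 19.1 FPKM and Tppp3 at 612 ± 81.2 and 468 ± 133. Their part in the members' differences was not tested.

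Of 25 genes tested around nitric oxide synthesis, 3 were higher and 2 lower, against 11.0% and 9.45% of all genes tested. The median log2 fold change was 0.05. Without control 1 and MCT 1, 2 were higher and 4 lower. Nostrin, which draws endothelial nitric oxide synthase into vesicles, was at 34.0 to 65.5 FPKM in control and 12.2 to 29.1 in MCT and fell by 1.32 on the log2 scale (SE 0.28, adjusted p 0.0126 by edgeR). Cav2, a caveolin, fell from 162 ± 13.3 to 119 ± 15.1 FPKM (adjusted p 0.021). Cav1, the caveolin that binds the synthase and holds it inactive, was at 552 ± 55.7 and 416 ± 66.4 FPKM and did not pass (adjusted p 0.0538). Hsp90aa1, a chaperone of the family that assists the synthase, was at 81.4 ± 16.9 and 109.9 ± 9.64 FPKM (adjusted p 0.0527).

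Arg1, arginase, which uses the same substrate as the synthase, went from 2.44 to 6.84 FPKM in control up to 8.11 to 17.6 in MCT (log2 fold change 1.35, SE 0.36, adjusted p 0.0288 by edgeR). The other synthases were near the floor: Nos2 averaged 0.22 FPKM in control and 0.505 in MCT (adjusted p 0.103), and Nos1 was listed at 0 in all control libraries and at up to 0.03 FPKM in MCT. The Arg1 call was lost without control 1, control 2, control 4 or MCT 2 (adjusted p 0.0585 to 0.0751), and without both control 1 and MCT 1 (0.0971). Cav2 was lost without control 2 or control 4 (0.0525 and 0.056).

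The natriuretic peptides themselves were hardly detected in lung. Nppa was at 0.32 to 0.69 FPKM in control and 0 to 0.64 in MCT, Nppb at 0 to 0.95 and 0 to 0.66, and Nppc was listed at 0 in all libraries. Of 10 genes tested for peptides, their processing and other guanylyl cyclases, 1 was lower and none higher by edgeR. Over all genes tested, 9.45% were lower and 11.0% higher. In this list the counts at an unadjusted p under 0.05 were the same. Of all 16715 genes tested, 5513 to 5725 passed that p in either direction. The median log2 fold change of the list was -0.22. Mme, neprilysin, which degrades natriuretic peptides, was at 15.1 to 24.2 FPKM in control and 11.7 to 15.7 in MCT (log2 fold change -0.53, SE 0.15, adjusted p 0.0398). Its ranges overlapped, and the call was kept only when control 1 was left out, not when any other single library was. Furin, the most abundant gene of the list and a protease that processes peptide precursors, was at 55.8 ± 4.30 and 50.7 ± 3.88 FPKM (adjusted p 0.283). Gucy1a2, the other alpha subunit, averaged 0.258 FPKM in control and 0.24 in MCT.

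Of 12 genes for other phosphodiesterases that act on cGMP and for cGMP export, 4 were lower and 1 higher. Their median log2 fold change was 0.07. Among all genes tested, 9.45% were lower and 11.0% higher. Pde3a, whose enzyme is inhibited by cGMP, was at 4.53 to 6.32 FPKM in control and 0.88 to 1.47 in MCT, a log2 fold change of -2.15 (SE 0.20, adjusted p 0.000332 by edgeR). Pde2a, which cGMP activates, was at 13.1 to 22.7 and 9.21 to 11.4 FPKM (-0.73, SE 0.15, adjusted p 0.011). Pde9a, which has a high affinity for cGMP, was at 14.0 to 16.7 and 9.51 to 13.0 FPKM (-0.49, SE 0.11, adjusted p 0.0168), with 0.0512 when MCT 2 was left out. The fourth was Abcc4, an exporter of cyclic nucleotides (8.73 ± 1.11 to 6.10 ± 0.763 FPKM, adjusted p 0.017), named after its values were seen. Pde6d, a lipid-binding subunit that serves many prenylated proteins, rose by 0.31 (SE 0.09, adjusted p 0.0401), a call lost without 6 of the 8 libraries taken singly. With control 1 and MCT 1 left out, 4 genes of this list were higher and 4 lower.

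The kinase list held targets of cGMP-dependent kinase, but also Prkg2, Lrmp and cyclic nucleotide-gated channel genes such as Cnga3 and Cngb1. Of its 19 tested genes, 3 were higher and 2 lower, against 11.0% and 9.45% of all genes tested. The median log2 fold change of the list was 0.18, and without control 1 and MCT 1, 2 were higher and 1 lower. Prkg2, the other kinase gene, was listed at 0 in all but MCT 4 (0.01 FPKM). Lrmp, a relative of the kinase substrate Mrvi1 that lymphoid and tuft cells also express, fell from 34.5 ± 10.3 to 13.6 ± 3.34 FPKM (log2 fold change -1.33, SE 0.25, adjusted p 0.00674 by edgeR). Mrvi1 itself was at 6.09 and 5.44 FPKM on average (adjusted p 0.573). Csrp1, a cytoskeletal LIM protein, rose from 643 ± 49.6 to 855 ± 63.4 FPKM (0.41, SE 0.10, adjusted p 0.0172). Trpc6, a cation channel inhibited through the kinase, was at 1.20 to 2.51 and 2.30 to 5.46 FPKM (1.16, SE 0.29, adjusted p 0.0215), and Pln, phospholamban, rose from 1.79 ± 0.562 to 3.43 ± 0.655 FPKM (0.94, SE 0.26, adjusted p 0.0314). Gtf2i, a transcription factor, fell by 0.25 (SE 0.07, adjusted p 0.0331). The calls of Gtf2i and Pln were each lost without 6 of the 8 libraries taken singly, and without both control 1 and MCT 1 (adjusted p 0.0831 and 0.0854). That of Csrp1 was lost without MCT 2 (adjusted p 0.052), and that of Trpc6 without control 2, MCT 2 or MCT 4 (0.056 to 0.0654).

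**Figure D4:**
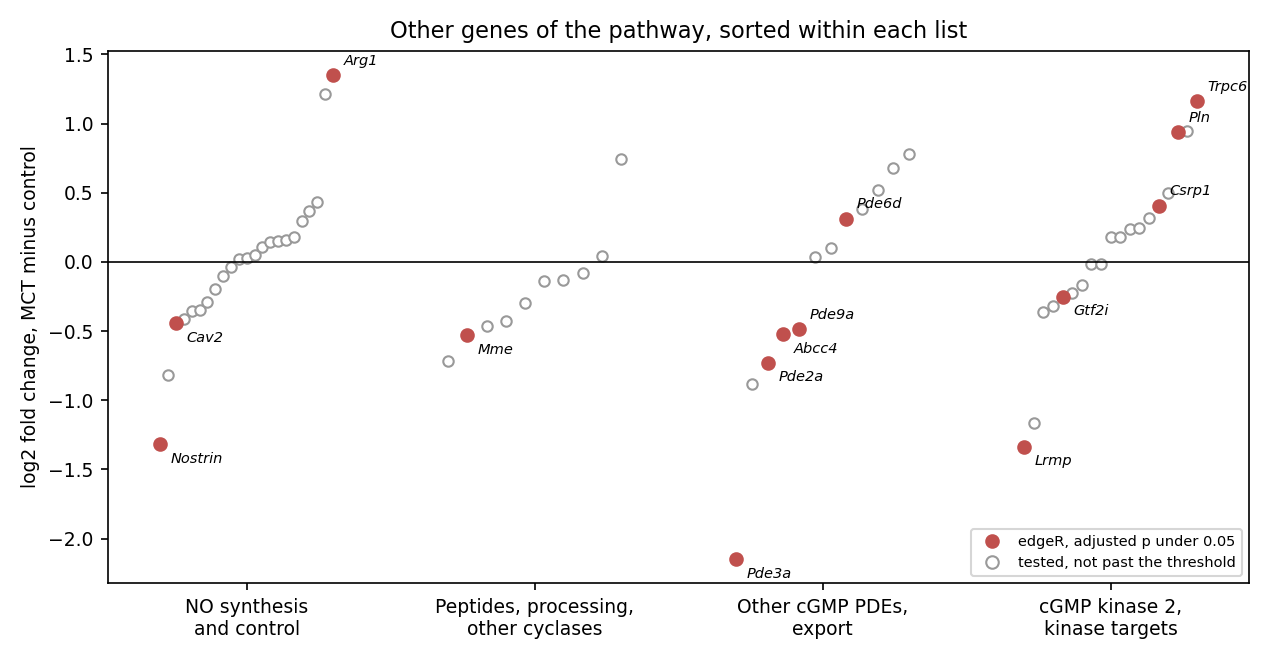
Log2 fold change, MCT minus control, of tested genes in the 4 lists of other pathway genes, sorted within a list and filled and named where edgeR's adjusted p is under 0.05. Pde3a is the lowest at -2.15 and Arg1 the highest at 1.35, and most genes of each list are open circles, past no threshold.

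Each member was compared with 7311 genes with a mean of at least 10 FPKM, by Pearson r of log2(FPKM + 0.5). Matches named only by a clone or locus label were left out. The remaining genes whose pattern over the 8 libraries was most like each member are given. They were Rnf167, Nova2 and Pim3 for Npr1 (r 0.988 to 0.990) and Pxn, Plcg1 and Rela for Npr3 (0.985 to 0.987). For Gucy1a1 they were Polr2e, Arhgap29 and Lats2 (0.974 to 0.980), and for Pde5a Gapvd1, Sptan1 and Mfn2 (0.977 to 0.983). For Gucy1b1 they were Fbxw2, Smurf2 and Recql (0.938 to 0.978). Npr2 came closest to Mrpl44, Acsf2 and Mapkap1 (0.924 to 0.952), and Nos3 to Hpf1, Ptp4a1 and Gm22953 (0.859 to 0.883). The 8 points share library and depth between genes, and the difference between the 2 groups enters each r.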

How the data were processed

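RNA sequencing measured gene expression in 4 control and 4 monocrotaline rat lung libraries. Per the submitters' processing notes, the tools were cutadapt 1.9, HISAT2 2.0.4, StringTie 1.3.4d and edgeR, on Rnor_6.0; their order, settings and use of strand are not given in the sources used here. The authors deposited estimated counts per gene as whole numbers, in steps of about 3.672 per read pair, and FPKM values; both were used as deposited. The totals were 39.8 to 54.1 M units in control and 41.5 to 66.6 M in MCT.

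The estimated counts were tested with edgeR 4.0.16 (R 4.3.3): TMM scaling, filterByExpr with a minimum count of 10, a robust quasi-likelihood fit over all genes, and Benjamini-Hochberg adjusted p under 0.05. Because 1 read pair counts as several units, the same fit was also run on counts divided by that spacing. Standard errors are on the log2 scale. Alternatives were DESeq2 1.42.0, limma 3.58.1 on log2(FPKM + 0.5), other pseudocounts, scaling and filters, a replicate block, and each library left out. Leaving out control 1 and MCT 1, dividing by the spacing, and keeping only endothelial markers above 0 in every library were added after the data were seen. Within-library ratios had exact two-sided permutation tests (scipy 1.17.1). The count fit was tested on 3 simulated data sets with planted changes. It recovered 23.9% of 1.5-fold, 58.7% of 2-fold and 91.9% of 4-fold changes, and 6.19% of its calls were false. The planted changes made up a far smaller share of the genes than the 20.5% called in the data. These rates therefore need not hold for the members. A member that did not pass may still differ.

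The members and gene lists were chosen with earlier results of these data known. Named were the members, up to 3 called genes with the smallest p in each direction of each pathway list (the most abundant gene where none was called), the most abundant marker of each cell type list, and the 3 genes most like each member. Of the genes that this rule names, 2 are not reported here. Other genes named were chosen after their values were seen. Ratios to Prkg1 were not computed.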

Additional observations from a re-analysis of the deposited data

Results flagged for a closer look

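In 4 of 58 sets of 4 libraries, 1 library stood apart from the other 3, with a gap to its nearest neighbour above Dixon's 95% critical value as a share of the whole range, on the log2(FPKM + 0.5) scale or that of the ratio. Chance alone marks about 1 in 20 sets. For Npr2, MCT 4 (12.9 FPKM, the others 11.4 to 11.5) had a gap of 0.884 of the range. For Cav2, MCT 2 (96.2 FPKM, the others 125 to 127) had a gap of 0.952. For Npr1 relative to the endothelial markers, control 1 (-0.06, the others -0.45 to -0.39) had a gap of 0.848. For Gucy1b1 relative to the smooth muscle markers, control 4 (0.53, the others -0.13 to -0.05) had a gap of 0.882.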

How the results depend on the processing

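Of 702 alternative values, none of a result past its threshold reversed direction. Npr1 relative to the endothelial markers, near 0 and past no threshold (0.002), turned negative with a pseudocount of 1 (-0.023), the summed marker FPKM (-0.205) and markers above 0 in every library (-0.059), and ran from -0.065 to 0.092 on leaving out 1 library. Npr1 and Npr3 were called lower in all 18 alternatives each. The log2 fold change of Gucy1a1 missed the threshold in limma (-0.497, -0.503 and -0.489 with pseudocounts of 0.5, 0.1 and 1), on leaving out 1 library (-0.597 to -0.385, past it only without MCT 3) and without control 1 and MCT 1 (-0.477). That of Pde5a passed in DESeq2 (-0.702). The cause was not tested. Among single genes of the pathway lists, 51 alternative values missed the threshold that the reported value passed.

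On leaving out 1 library, genes around nitric oxide synthesis called lower numbered 1 to 3, and those of the peptide list called lower 0 to 1. Phosphodiesterase genes called higher numbered 0 to 3 and lower 2 to 4. Genes of the kinase list called higher numbered 1 to 3 and lower 1 to 2. All genes called higher numbered 1191 to 1946 and lower 975 to 1730, both lowest without MCT 2. Without control 1 and MCT 1, 4 genes around nitric oxide synthesis and 1 gene of the kinase list were lower and 4 phosphodiesterase genes higher. DESeq2 called 2 phosphodiesterase genes higher.

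The labels number the libraries of both groups, but same-numbered libraries did not deviate together (r of 0.11, 0.016, -0.017 and -0.085), so the numbers were not taken as pairs. With the replicate number as a block, 1436 genes were higher and 1271 lower (1845 and 1579 without it). In that fit 1 gene around nitric oxide synthesis was lower, 0 of the peptide list lower, 0 phosphodiesterase genes higher and 1 gene of the kinase list lower. In the block, Npr3 was at -1.134, Npr1 at -0.727 and Gucy1a1 at -0.507, all called.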
